A study of Homo sapiens with 18 samples.

Results

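The nuclear genes for the subunits of oxidative phosphorylation were followed across all groups of an RNA sequencing study of MOLM-13 cells, an established human line of acute myeloid leukaemia. Members were the rows of the deposited table whose symbol starts with NDUFA, NDUFB, NDUFC, NDUFS or NDUFV and a digit (complex I), equals SDHA, SDHB, SDHC or SDHD (complex II), starts with UQCR (complex III), starts with COX and a digit from 4 to 8 (complex IV), or starts with ATP5 (complex V). The rule found 91 rows of 23713, which are 40, 4, 10, 17 and 20 rows of complexes I to V. It goes by symbol, so NDUFA4, a subunit found with complex IV, and its paralog NDUFA4L2 are counted under complex I. A group mean of at least 1 FPKM in at least 1 group was reached by 81 of the 91 rows. The 6 groups, each of 3 labelled samples, were cells given DMSO (the solvent control), IACS-9571 (a ligand of the bromodomains of TRIM24 and BRPF1) or dTRIM24 (a degrader that links a bromodomain ligand to a ligand of the ubiquitin ligase receptor VHL), for 4 h or 24 h. Sample titles and time points name both times, although the treatment protocol speaks of 24 h throughout, and the titles were used. The compounds' dose was not given in the sources used here, so none can be called matched. All groups share the 1 cell line and its medium, and the labels do not say whether samples of a group were separate cultures. The table holds 1 mean per gene and group, so each value below is an authors' mean, differences have no replicate check or test, and the depth is unknown.

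Oxidative phosphorylation is the mitochondrial process that passes electrons from NADH and succinate to oxygen and uses the resulting proton gradient to make ATP. Complex I takes electrons from NADH, complex II from succinate, complex III passes them to cytochrome c, complex IV reduces oxygen, and complex V is the ATP synthase. Most subunits are encoded in the nucleus and imported, and a few are encoded by mitochondrial DNA, so each complex apart from complex II is built from both genomes. Myeloid leukaemia cells are known to draw on this process for energy.

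Values are FPKM, read fragments scaled to transcript length and to library size, and differences are of log2(FPKM + 1) between group means. They are set beside the same differences over 11054 kept genes, which exclude ERCC spike-ins (synthetic RNAs put into every sample) and small RNAs. The columns looked scaled to the spike-ins, whose median lay between 29.7 and 31.7 FPKM, and the median of kept genes lay between 12.1 and 12.4 FPKM in dTRIM24 at 24 h and in all 4 h groups, against 9.96 FPKM in DMSO and 9.87 FPKM in IACS-9571 at 24 h. The differences of 25 spike-ins had an SD between 0.11 and 0.22 over the 9 comparisons, a spread between single RNAs that is no error of a median. The labelled cell type was checked with its markers, and none of 4 T cell or 4 erythroid markers reached 1 FPKM. All 8 myeloid leukaemia markers were kept, from MPO at 8.63 FPKM to ELANE at 1057 FPKM in DMSO at 4 h. PAX5, a B cell factor, had 5.15 FPKM in that group. KRT8 and KRT18 of the epithelial markers were kept, with 2.33 and 29.7 FPKM there, so KRT18 lay above MPO. The labels' protocols name normalization by cell count with ERCC spike-ins, a scale meant to give RNA per cell. The cell counts were not checked here, so how far this parts fewer cells from less RNA per cell was not tested.

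The differences described below ran with the base composition of the members, so coding starts of the 2 members with the lowest and the 2 with the highest GC content are shown first. They are the first 120 bases of the coding sequence, read from GENCODE transcripts on GRCh38, with every G and C in capitals; a span given for several exons includes introns. NDUFA5, an accessory subunit of complex I, lies on the minus strand (chr7:123550533-123557795, 3 coding exons), and ATP5E, the epsilon subunit of the F1 motor of complex V, on the minus strand (chr20:59030342-59032251, 2 coding exons). NDUFS7, a core subunit of complex I that holds an iron-sulphur cluster, lies on the plus strand (chr19:1383927-1388591, 3 coding exons), and ATP5D, the delta subunit of the F1 motor, on the plus strand (chr19:1241851-1241970, 1 coding exon).
NDUFA5: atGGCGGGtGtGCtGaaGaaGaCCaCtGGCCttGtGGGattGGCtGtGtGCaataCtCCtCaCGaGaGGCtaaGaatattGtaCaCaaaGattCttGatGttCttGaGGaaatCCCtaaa
ATP5E: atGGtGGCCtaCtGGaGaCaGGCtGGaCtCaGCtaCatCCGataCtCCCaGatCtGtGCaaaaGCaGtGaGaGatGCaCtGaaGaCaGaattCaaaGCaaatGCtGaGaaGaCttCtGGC
NDUFS7: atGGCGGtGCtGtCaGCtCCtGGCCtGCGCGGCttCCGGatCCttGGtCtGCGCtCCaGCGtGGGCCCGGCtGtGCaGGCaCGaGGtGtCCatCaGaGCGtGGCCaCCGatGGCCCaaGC
ATP5D: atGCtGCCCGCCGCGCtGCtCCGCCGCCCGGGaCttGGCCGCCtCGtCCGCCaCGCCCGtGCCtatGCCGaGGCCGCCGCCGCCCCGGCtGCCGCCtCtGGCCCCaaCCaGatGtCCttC
In these stretches G and C make up 55 of 120 bases in NDUFA5, 59 in ATP5E, 83 in NDUFS7 and 93 in ATP5D. Over their transcripts the GC content was 34.4% in NDUFA5, 38.7% in ATP5E, 66.8% in NDUFS7 and 68.7% in ATP5D. The 81 kept members had a median of 49.9%, and kept genes had a median of 49.6%.

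The members were abundant RNAs. The mean over the 6 groups lay above the median of kept genes in 79 of 81 members, and 54 members had more than 100 FPKM in each group. Of the 500 most abundant kept genes 41 were members. Together the 91 rows held between 3.07% (IACS-9571, 24 h) and 3.2% (DMSO, 4 h) of the FPKM of a column without spike-ins and small RNAs. Complex IV members had the highest median level, 619.9 FPKM over 11 kept members, ahead of complex V with 355 FPKM over 18. Complexes I, II and III lay close together, at 133, 131 and 124 FPKM. Levels of the rows within a complex were far from equal, and some of the lowest rows are not subunits that assemble in fixed ratios. In complex I they ran from 3.62 FPKM for NDUFA4L2, a paralog of NDUFA4, to 422 FPKM for NDUFS5, an accessory subunit. In complex II they ran from 79.9 FPKM for SDHC to 223 FPKM for SDHD, and in complex III from 51.1 FPKM for the copy UQCRBP1 to 915 FPKM for UQCRH. In complex IV they ran from 172 FPKM for COX7A2L, a factor of respiratory supercomplexes, to 1178 FPKM for COX7C, a small membrane subunit. In complex V they ran from 10.3 FPKM for the coupling factor ATP5S to 1072 FPKM for ATP5B, the catalytic beta chain. Many members have short annotated transcripts (median 712 bases against 1716 in kept genes), and how the authors' FPKM treat short transcripts was not given in the sources used here. Each length is a median over annotated coding transcripts and can fall short of the mRNA. In ATP5A1 it is 910 bases, beside a coding sequence of 1659 bases.

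**Figure D1:**
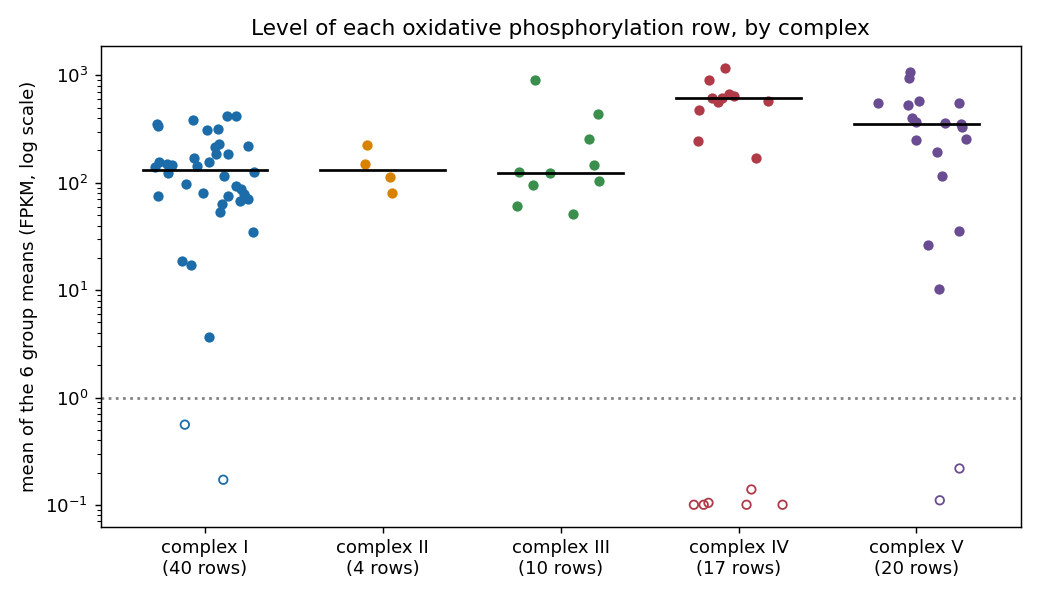
Each point is 1 row, placed by complex, with the mean of its 6 group means in FPKM on a log axis; open points never reached 1 FPKM (dotted line) and black bars mark the median of kept members. Complex IV has the highest median, 619.9 FPKM, and its 6 tissue isoforms lie near 0.1 FPKM.

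The general isoforms of complex IV were the ones present. COX4I1, the regulatory subunit that all tissues use, had 740.4 FPKM in DMSO at 4 h, while its lung and hypoxia-linked isoform COX4I2 stood at 0.0914 FPKM. That is the value that 6066 rows of this column share, close to the lowest of the column, so it is read as the floor of the table. COX6A2 and COX7A1, the heart and muscle isoforms, and COX7B2 stood at the floor in all 6 groups as well. COX6B2 and COX8C, known from testis, had at most 0.118 and 0.194 FPKM. Their counterparts COX6A1, COX6B1, COX7A2, COX7B and COX8A had 708, 788, 601, 959 and 597 FPKM in DMSO at 4 h. The c-ring of the ATP synthase, the rotor in the membrane, is encoded by 3 genes whose mature protein is the same. Of their summed FPKM in DMSO at 4 h, ATP5G2 held 45.6%, ATP5G1 40.7% and ATP5G3 13.7%, and over the 6 groups ATP5G2 stayed between 45.1% and 47.8%. The other 4 rows under 1 FPKM were the antisense RNA NDUFB2-AS1, which at 0.724 FPKM in dTRIM24 at 24 h came nearest to the bound, the read-through genes NDUFC2-KCTD14 and ATP5J2-PTCD1, and the copy ATP5L2. Just inside the bound was NDUFA4L2, with 4.26 FPKM in that group.

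Across the 6 groups the members kept within a narrow range. The summed FPKM of the 91 rows was 24962 in DMSO, 24003 in IACS-9571 and 23075 in dTRIM24 at 4 h, and 20573, 18794 and 23575 at 24 h. IACS-9571 at 24 h was the lowest group for 77 of 81 members (95.1%) and for 55.4% of kept genes. The exceptions were SDHA, ATP5SL and NDUFA4L2, lowest in DMSO at 24 h, and ATP5EP2, lowest in DMSO at 4 h. DMSO at 4 h was the highest group for 50 members (61.7%) and for 25.8% of kept genes. The ratio of the highest to the lowest group mean had a median of 1.33 and reached 1.79 in NDUFS7, 1.72 in NDUFB7 and 1.66 in COX8A, and its lowest value was 1.16, in ATP5H. None of the 81 members differed 2-fold in any of the 9 comparisons. Among kept genes, 2-fold was passed by 0.289% (IACS-9571 against DMSO), 0.688% (dTRIM24 against DMSO) and 0.597% (dTRIM24 against IACS-9571) at 4 h. It was passed by 0.172%, 0.199% and 0.217% in the same order at 24 h, and by 0.217%, 0.443% and 0.669% from 4 h to 24 h in DMSO, IACS-9571 and dTRIM24. With so few genes past 2-fold in all, a count of 0 among 81 members lies near that background.

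**Figure D2:**
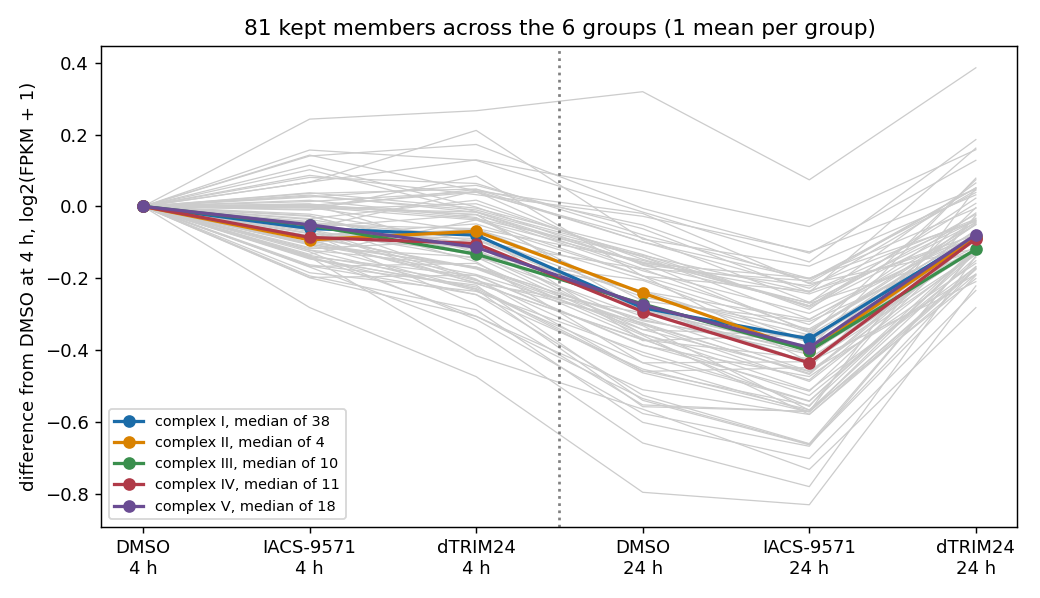
Grey lines are the 81 kept members and coloured lines the medians of each complex, on the authors' scale, as differences of log2(FPKM + 1) from DMSO at 4 h over the 6 groups. The complex medians run close together, lowest in IACS-9571 at 24 h and near the 4 h level in dTRIM24 at 24 h.

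The DMSO groups ask what differs between the times without a compound. At 24 h, 79 of 81 members lay below 4 h, beside 95.0% of kept genes. The median of members was -0.29, against -0.22 over kept genes, so most of the members' difference was shared by genes at large. Relative to kept genes the members' median was -0.068, and after quantile normalization, which gives all columns the same distribution, it was -0.015. Complex medians from I to V were -0.28, -0.24, -0.27, -0.29 and -0.27. The 7 core subunits of complex I, which carry its cofactors, had a median of -0.41, and the 29 accessory ones -0.26. NDUFS7 had 129.8 FPKM with DMSO, 107 with IACS-9571 and 93.2 with dTRIM24 at 4 h, and 74.3, 72.5 and 111 FPKM at 24 h. Its difference at 24 h was -0.80, the lowest of the members, and the dTRIM24 value at 24 h lay above both other 24 h groups. NDUFV1, the core subunit that binds NADH and flavin, had 94.7 FPKM with DMSO, 86.7 with IACS-9571 and 75.98 with dTRIM24 at 4 h, and 63.2, 59.3 and 87.02 FPKM at 24 h, a difference of -0.58 in DMSO, with the same order of groups at 24 h. NDUFS1, the largest core subunit, was flatter, with 55.2 FPKM with DMSO, 55.7 with IACS-9571 and 56.8 with dTRIM24 at 4 h, and 49.2, 45.6 and 57.8 FPKM at 24 h. Past 1.5-fold lower lay 3 members, NDUFS7, NDUFB7 (-0.66) and NDUFA3 (-0.60), beside 3.64% of kept genes. The 2 members above their 4 h level were NDUFB3 (0.04) and the copy ATP5EP2 (0.32).

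Members of complexes II to V also differed among themselves. SDHA, the flavoprotein that oxidises succinate, had 129.5 FPKM with DMSO, 126 with IACS-9571 and 112 with dTRIM24 at 4 h, and 93.9, 94.6 and 129 FPKM at 24 h. SDHD, a membrane anchor of the same complex, had 249 FPKM with DMSO, 227 with IACS-9571 and 243 with dTRIM24 at 4 h, and 218, 184 and 215 FPKM at 24 h. SDHA was lowest in the DMSO and IACS-9571 groups at 24 h, while SDHD was lowest in IACS-9571 at 24 h and nearly level in DMSO and dTRIM24 at that time. From 4 h to 24 h in DMSO they differed by -0.46 and -0.19, and SDHB, the iron-sulphur subunit, and the anchor SDHC by -0.29 and -0.15. In complex III, UQCRC1 and UQCRC2, the paired core proteins, differed by -0.51 and -0.16, and UQCRFS1, the Rieske iron-sulphur protein, by -0.35. UQCRC1 had 152 FPKM with DMSO, 132 with IACS-9571 and 123 with dTRIM24 at 4 h, and 106, 101 and 134 FPKM at 24 h. UQCRC2 was flatter, with 153 FPKM with DMSO, 156 with IACS-9571 and 151 with dTRIM24 at 4 h, and 137, 133 and 148 FPKM at 24 h. In complex IV, COX8A differed by -0.56, COX4I1 by -0.45 and COX5B by -0.37, while COX6C and COX7C, small membrane subunits, differed by -0.10 and -0.13. In complex V the F1 subunits ATP5D, ATP5A1, ATP5B, ATP5C1 and ATP5E differed by -0.55, -0.34, -0.31, -0.09 and -0.06. The alpha and beta chains ATP5A1 and ATP5B, which bind ATP, thus lay between the extremes of that motor on the authors' scale. With the trend on GC content taken out, as described below, ATP5A1 (-0.15) and ATP5B (-0.08) were instead its lowest subunits. ATP5D then stood at -0.05, and ATP5C1 and ATP5E at 0.04 each. The 4 subunits of the peripheral stalk, which holds the motor still, had a median of -0.17, with ATP5H at -0.03.

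At 4 h the comparisons with DMSO ask for early effects of the compounds, and both share the same DMSO mean. With IACS-9571, 59 of 81 members lay below DMSO, beside 49.9% of kept genes, with a median of -0.06 against 0.00. Of 1755 kept genes with a mean of at least 50 FPKM, 65.5% lay lower, with a median of -0.03. Complex medians from I to V were -0.06, -0.09, -0.05, -0.09 and -0.05. NDUFS7 (-0.28), UQCRC1 (-0.20) and ATP5G1 (-0.20) were lowest, and ATP5EP2 (0.24), NDUFC1 (0.16) and COX6C (0.14) highest. After quantile normalization 49 members lay lower, with a median of -0.025, and after rescaling to the spike-ins the median was -0.16 against -0.086 over kept genes. That rescaling took the ratio of the spike-ins' column medians, while the spike-ins' own differences had a median of -0.015. With dTRIM24, 64 members lay below DMSO, beside 52.2% of kept genes, with a median of -0.10 against -0.01. Of the 1755 abundant genes 61.5% lay lower, with a median of -0.04. After quantile normalization 53 members lay lower, with a median of -0.039. Complex medians were -0.08, -0.07, -0.13, -0.10 and -0.11, and the core subunits of complex I had -0.23. COX8A, a small membrane subunit of complex IV, had 597 FPKM with DMSO, 541 with IACS-9571 and 447 with dTRIM24 at 4 h, and 403, 359 and 491 FPKM at 24 h. Its 4 h difference with dTRIM24 was -0.42, next to NDUFS7 at -0.47. NDUFA5 stood on the other side, with 70.6 FPKM with DMSO, 74.1 with IACS-9571 and 81.9 with dTRIM24 at 4 h, and 66.2, 62.8 and 72.2 FPKM at 24 h. Its 4 h difference was 0.21, and dTRIM24 at 4 h was its highest group. Set directly against IACS-9571 at 4 h, dTRIM24 had 59 members lower, beside 57.4% of kept genes, and a median of -0.05 against -0.02. Rescaled to the column medians of the spike-ins, the medians were 0.029 over members and 0.052 over kept genes. The members' sign thus turned with that of kept genes, and they lay below them under both scalings. The spike-ins' own differences had a median of 0.017 in this comparison. COX8A (-0.28) and ATP5D (-0.20) were lowest and NDUFA5 (0.14) highest.

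At 24 h IACS-9571 gave the difference with the smallest spread over members of the 9 comparisons. Of 81 members, 78 lay below DMSO, beside 57.4% of kept genes, and the median was -0.12 against -0.02. After quantile normalization 55 members lay lower and the median was -0.023 against 0.0016, and with the length trend taken out it was -0.068. Complex medians from I to V were -0.12, -0.10, -0.11, -0.14 and -0.13, and members ran from -0.25 to 0.02, with an SD over members of 0.05. Of the 1755 kept genes with a mean of at least 50 FPKM, 86.8% lay lower, with a median of -0.09, so abundant genes at large also lay lower. SDHD differed by -0.24, NDUFB2, an accessory subunit of complex I, by -0.24, ATP5G3 by -0.22 and COX5B by -0.19. COX5B, a peripheral subunit that binds zinc, had 658 FPKM with DMSO, 619.5 with IACS-9571 and 585 with dTRIM24 at 4 h, and 509.6, 447 and 646 FPKM at 24 h. The 3 members not below DMSO were NDUFA4L2 (2.9 FPKM against 2.85 FPKM), SDHA (94.6 against 93.9 FPKM) and ATP5SL (30.03 against 29.96 FPKM), a factor linked to complex I assembly. From 4 h to 24 h in IACS-9571 all 81 members lay lower, by a median of -0.33, beside 97.0% of kept genes and their median of -0.26. Past 1.5-fold lower there were NDUFB7 (-0.61) and COX8A (-0.59), beside 2.42% of kept genes.

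After 24 h with dTRIM24 the members stood near their 4 h level. Against DMSO at 24 h, 2 of 81 lay lower, SDHD (-0.02) and the copy UQCRBP1 (-0.10), beside 3.23% of kept genes. The median of members was 0.19 and that of kept genes 0.26, and 24 of 81 members lay above the shift of genes at large. Taken relative to that shift, the sign of the members' median was therefore the opposite one (-0.07 with median centring), while after quantile normalization the members' median stood 0.0036 above that of kept genes. Complex medians from I to V were 0.22, 0.13, 0.18, 0.20 and 0.16. ATP5D had 293 FPKM with DMSO, 278 with IACS-9571 and 242 with dTRIM24 at 4 h, and 199, 197 and 303 FPKM at 24 h. Its difference of 0.60 made it the 1 member past 1.5-fold higher, beside 4.75% of kept genes. NDUFB7, an accessory subunit of complex I, had 289 FPKM with DMSO, 257 with IACS-9571 and 228 with dTRIM24 at 4 h, and 183, 168 and 263 FPKM at 24 h. NDUFS7 differed by 0.57, NDUFB7 by 0.52, SDHA and NDUFV1 by 0.46 each, NDUFA4L2 by 0.45 and NDUFS8, a core iron-sulphur subunit, by 0.44. At the other end ATP5E differed by 0.02, SDHC by 0.03 and ATP5C1, the central stalk, by 0.05. In complex II, SDHA and SDHB (0.24) of the matrix arm thus lay above DMSO, and the anchors SDHC and SDHD were within 0.03 of it.

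Between the compounds at 24 h, 0 of the 81 members were lower in the dTRIM24 group, beside 1.56% of kept genes, and the median was 0.31 against 0.28. The members' median thus stood 0.037 above that of kept genes. With 0.1 FPKM added in place of 1 FPKM it stood only 0.0070 above it. Complex medians from I to V were 0.35, 0.27, 0.29, 0.31 and 0.30. Past 1.5-fold higher were NDUFB7 (0.64), ATP5D (0.62) and NDUFS7 (0.61), beside 3.18% of kept genes. COX5B differed by 0.53, with 646 FPKM against 447 FPKM. UQCRBP1 (0.10) and SDHC (0.15) differed least. From 4 h to 24 h in dTRIM24, 27 members lay lower, beside 38.6% of kept genes, with a median of 0.03 against 0.05. ATP5D (0.32) was highest and NDUFA5 (-0.18) lowest. The comparisons at 24 h share group means with each other and with the comparisons of times, so their values are not independent.

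**Figure D3:**
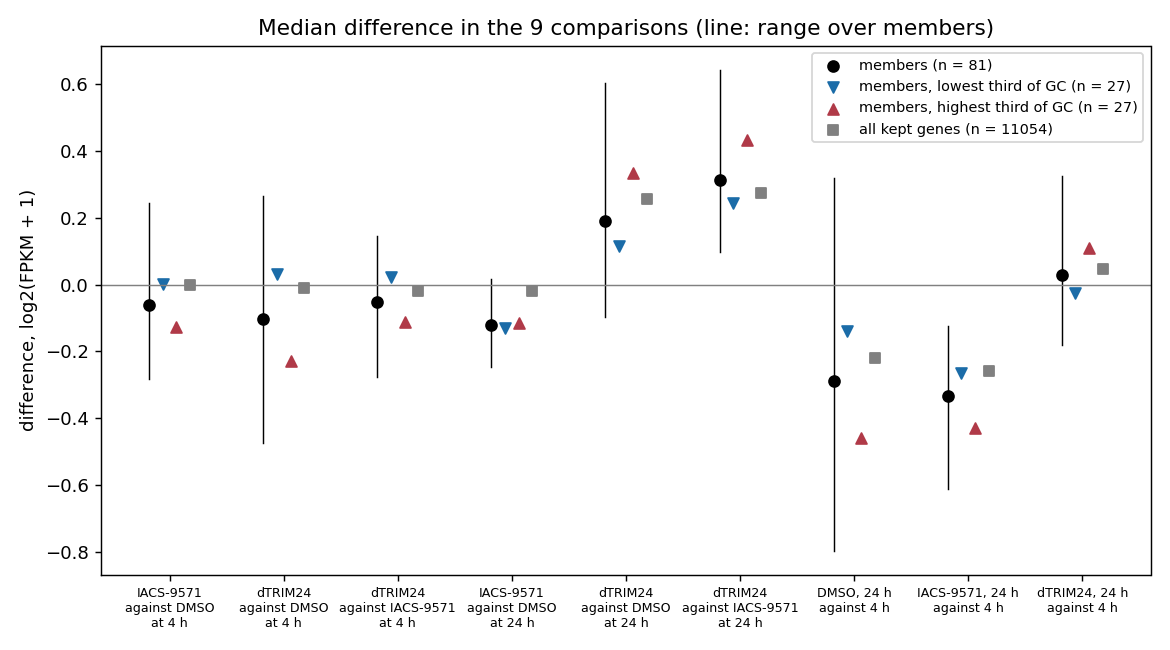
Symbols are median differences of log2(FPKM + 1) in the 9 comparisons for the 81 members, for the 27 members of lowest and the 27 of highest GC content, and for 11054 kept genes; the line spans all members. Members lie close to kept genes, and the GC groups part in all comparisons but IACS-9571 against DMSO at 24 h.

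The spread between members ran with the GC content of their transcripts. Spearman's rho over the 81 members was -0.83 for DMSO at 24 h against 4 h, -0.83 for dTRIM24 against DMSO at 4 h and 0.84 for the same pair at 24 h. Over 10770 kept genes with a GC value it was -0.73, -0.72 and 0.61, so the relation was not limited to the members. For IACS-9571 against DMSO, rho over members was -0.61 at 4 h and 0.27 at 24 h. These are descriptions across genes of 1 set of means, and the points share their libraries. Within complex I, over 38 members, rho was -0.83 in DMSO and 0.89 for dTRIM24 at 24 h, and within complex IV, over 11, -0.91 and 0.82. From 4 h to 24 h in DMSO the 27 members of lowest GC content had a median of -0.14 and the 27 of highest -0.46. Kept genes within the same GC bounds had -0.13 and -0.40. For dTRIM24 against DMSO at 24 h the members had 0.12 and 0.33, and the kept genes 0.16 and 0.39. For dTRIM24 at 4 h the members had 0.03 and -0.23, and the kept genes 0.09 and -0.16. The members printed above sit at the ends of this order: NDUFA5 and ATP5E differed by -0.09 and -0.06 in DMSO, and NDUFS7 and ATP5D by -0.80 and -0.55. The part of GC content in these differences was not tested.

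**Figure D4:**
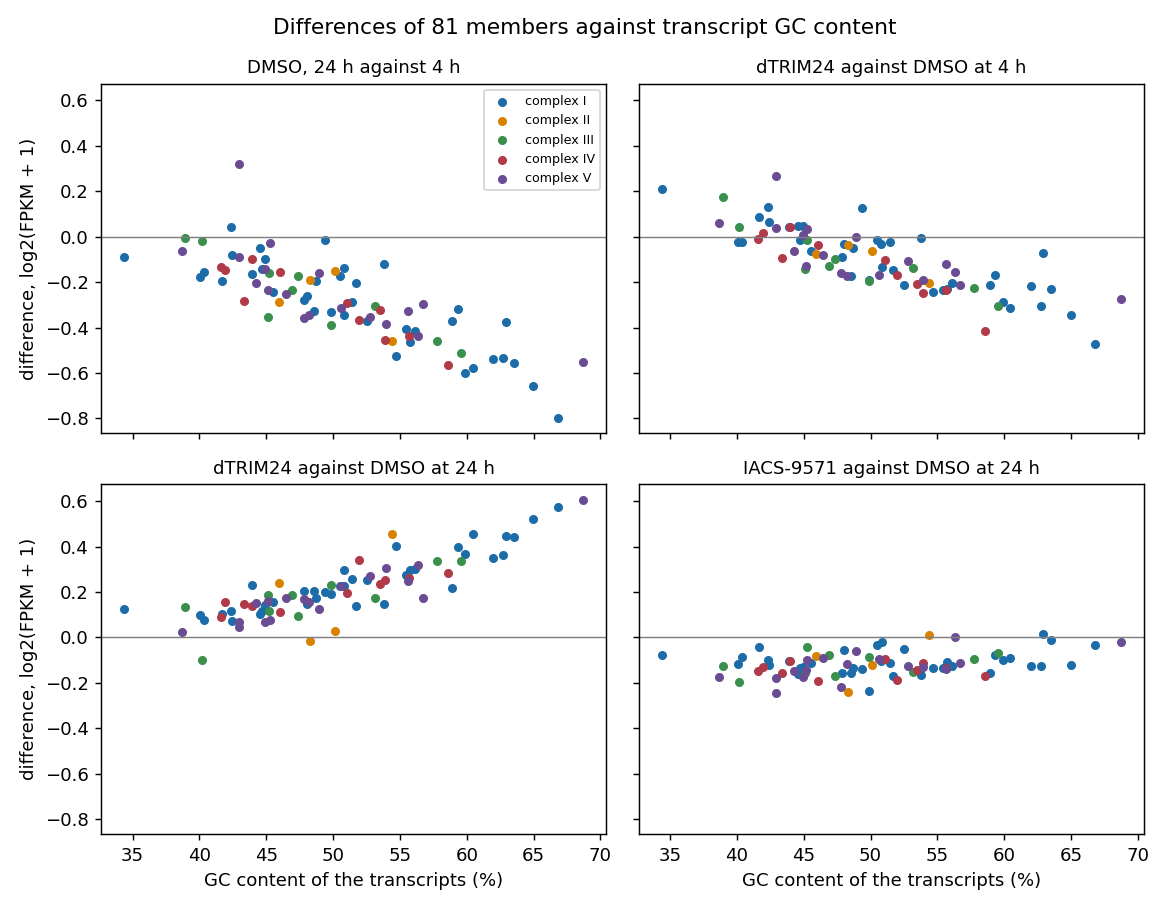
Each point is 1 of the 81 members, coloured by complex, with the GC content of its transcripts in percent and its difference of log2(FPKM + 1) in 4 comparisons. Points descend with GC content for DMSO over time and dTRIM24 at 4 h, ascend for dTRIM24 at 24 h, and lie nearly level for IACS-9571 at 24 h.

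A cubic trend of the difference on GC content was fitted over kept genes and taken out. With dTRIM24 at 4 h, 74 of 81 members then lay below the trend, by a median of -0.11, beside 59.6% of kept genes. COX8A (-0.30) and NDUFS7 (-0.29) were the lowest. With IACS-9571 at 24 h, 78 members lay below the trend, by a median of -0.10, beside 50.5% of kept genes. With dTRIM24 at 24 h, 69 members lay below it, by -0.05, beside 51.9% of kept genes. In that comparison SDHA stood at 0.14 and the anchors SDHC and SDHD at -0.23 and -0.25. ATP5D, NDUFS7 and NDUFB7, the highest before the trend was taken out, stood at 0.08, 0.08 and 0.05, below SDHA. Past 1.5-fold higher there were then 0 members. Of 1742 kept genes of at least 50 FPKM with a GC value, 1364, 1427 and 1204 lay below the trend in these comparisons. Their medians were -0.06, -0.07 and -0.04, on the same side of the trend as the members. Between the compounds at 24 h the members stood on the other side: 18 of 81 lay below the trend, beside 48.1% of kept genes, with a median of 0.05. Below it lay 66 members with IACS-9571 against DMSO at 4 h, beside 56.1%, and 66 between the compounds at 4 h, beside 57.2%. From 4 h to 24 h there were 52 in DMSO, beside 55.9%, 70 in IACS-9571, beside 51.3%, and 36 in dTRIM24, beside 45.2%. Of the 1742 abundant genes, 604 lay below it between the compounds at 24 h. At 4 h there were 1355 with IACS-9571 against DMSO and 1050 between the compounds. Over time there were 1201 in DMSO, 1288 in IACS-9571 and 960 in dTRIM24.

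Promoters were described because genes of this process are known targets of the factor NRF1. Upstream sequence was read from RefSeq (GRCh38.p14), in the 250 bases before the start, for 64 of 81 kept members. The letters GCGCANGCG, the centre of the NRF1 site, were sought on both strands, which overlap in a palindromic site, and were found in 18 of 64 members (28.1%). They were found in 14.5% of 8824 kept genes with a promoter and in 7.02% of all 27305 promoters. The letters CCGGAAG, bound by ETS factors such as GABPA, were in 25.00% of members, 17.7% of kept genes and 8.82% of all promoters. Examples from complexes I, II and V are 60 bases each, with the match in capitals: NDUFS7 (chr19:1383813-1383872, plus strand), SDHD (chr11:112086743-112086802, plus strand) and ATP5C1 (chr10:7788117-7788176, plus strand).
NDUFS7: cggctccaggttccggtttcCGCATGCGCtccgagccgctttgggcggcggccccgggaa
SDHD: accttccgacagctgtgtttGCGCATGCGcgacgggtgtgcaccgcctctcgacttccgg
ATP5C1: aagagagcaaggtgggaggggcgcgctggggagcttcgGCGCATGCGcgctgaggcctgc
These 3 members, alike in holding the letters, differed by -0.80, -0.19 and -0.09 from 4 h to 24 h in DMSO. A match is a description and does not show binding.

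Other genes of the pathway were described by list, beside the same medians over kept genes given above. Of 47 assembly factors, which build the complexes and are not part of them, 46 lay lower at 24 h than at 4 h in DMSO, with a median of -0.19. Against DMSO at 24 h their medians were -0.06 with IACS-9571 and 0.19 with dTRIM24. SCO2, a copper chaperone of complex IV, had 21.1 FPKM with DMSO, 15.4 with IACS-9571 and 14.8 with dTRIM24 at 4 h, and 11.7, 11.6 and 18.5 FPKM at 24 h. NDUFAF2, an assembly factor of complex I, had 49.4 FPKM with DMSO, 50.3 with IACS-9571 and 62.7 with dTRIM24 at 4 h, and 48.3, 54.4 and 59.2 FPKM at 24 h. SCO2 was the lowest of the list over time in DMSO (-0.80), and NDUFAF2 was the highest with dTRIM24 at 4 h (0.34). A further 6 genes of oxidative phosphorylation fall outside the symbols of the rule, among them the haem subunit CYC1 of complex III and its partner CYCS, cytochrome c. CYC1 had 287 FPKM with DMSO, 252 with IACS-9571 and 234 with dTRIM24 at 4 h, and 206, 199 and 268 FPKM at 24 h. CYCS had 83.4 FPKM with DMSO, 83.00 with IACS-9571 and 93.5 with dTRIM24 at 4 h, and 78.1, 71.5 and 83.2 FPKM at 24 h. The 14 enzymes of the citric acid cycle, which supplies NADH and succinate, had medians of -0.30 (DMSO over time), -0.09 (IACS-9571 at 24 h) and 0.25 (dTRIM24 at 24 h). The 14 kept regulators of respiratory genes had -0.25, 0.07 and 0.39. Among them POLRMT, the mitochondrial RNA polymerase, differed by 0.81 with dTRIM24 at 24 h, from 10.1 to 18.3 FPKM. NRF1 had 9.07 FPKM with DMSO, 8.97 with IACS-9571 and 7.92 with dTRIM24 at 4 h, and 6.34, 6.68 and 8.57 FPKM at 24 h. Its difference between dTRIM24 and DMSO was -0.18 at 4 h and 0.38 at 24 h, where kept genes had a median of 0.26. The coactivator PPARGC1A was at most 0.141 FPKM in any group. None of these lists had a member past 2-fold in the 9 comparisons. Of 26 names sought for genes of mitochondrial DNA, 0 were found among the rows, so their transcripts were not analysed here.

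Several values are uncertain because reads may be split between copies. UQCRHL, a near-identical copy of UQCRH, had 475 FPKM beside 991 FPKM for UQCRH, the hinge protein of complex III, in DMSO at 4 h. UQCRBP1 had 53.2 FPKM beside 91.8 FPKM for UQCRB, which binds ubiquinone. ATP5EP2 had 22.5 FPKM with DMSO, 26.9 with IACS-9571 and 27.3 with dTRIM24 at 4 h, and 28.4, 23.8 and 29.8 FPKM at 24 h. It was the 1 member lowest in DMSO at 4 h, and its parent ATP5E had 976 FPKM there. Other members also have processed copies in the genome, and NDUFC2 and ATP5J2 overlap read-through genes. Leaving out copies, read-through and antisense rows and associated factors kept 74 established subunits, with medians of -0.29 for DMSO over time, -0.12 for IACS-9571 and 0.20 for dTRIM24 against DMSO at 24 h.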

How the data were processed

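RNA of MOLM-13 cells was measured in 18 labelled samples, 3 in each of 6 groups. The deposited values are FPKM that the authors derived, per the submitters' processing notes, with the tools TopHat2 and Cuffnorm and the build hg19, and that they averaged to 1 column per group per the file headers; the labels' protocols name normalization by cell count with ERCC spike-ins. Tool versions, the annotation and the use of strand were not given in the sources used here. Spike-ins (92 rows) and small RNAs (1706 rows, by name) were left out, and genes with a highest group mean of at least 1 FPKM were kept. Differences are of log2(FPKM + 1), with thresholds of 2-fold and 1.5-fold and no test, since each group has 1 value and depth is unknown. Members and gene lists were chosen with earlier results of these data known. Named members were the extremes of each complex and comparison, core subunits, isoforms, members past 1.5-fold and those near the filter, and the extremes of each companion list; ATP5H, NRF1, the exceptions to a count and the examples of promoters and coding starts were chosen after their values were seen. GC content and length came from GENCODE transcripts of another build, by symbol, as medians over coding transcripts. In some members that length is shorter than the coding sequence, and the length trend rests on it. Steps were tested on simulated data. Alternatives covered pseudocount, filter, scaling, GC and length trends, and members. Python 3.11.15, numpy 2.4.6, pandas 2.3.3 and matplotlib 3.10.9 were used.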

Additional observations from a re-analysis of the deposited data

How the results depend on the processing

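Of 90 medians of members under alternative settings, 62 kept their sign and moved by no more than 1.5 times, a bound set after the values were seen because the means give no replicate error. For dTRIM24 against DMSO at 24 h the median of members was 0.19, but -0.065 with median centring, -0.012 with quantile normalization, -0.051 with the GC trend and -0.054 with the length trend taken out. For dTRIM24 against IACS-9571 at 24 h the same settings gave 0.037, 0.0053, 0.047 and 0.015. In DMSO over time they gave -0.068, 0.0068, -0.062 and -0.042, and in IACS-9571 over time -0.074, 0.0048, -0.085 and -0.048. Each of these 4 settings takes out the shift of all genes by construction. The members' medians relative to kept genes also moved with the pseudocount, the value added to FPKM. With 0.1 FPKM in place of 1 FPKM they were -0.041 in DMSO over time and -0.045 in IACS-9571 over time. For dTRIM24 at 24 h they were -0.099 against DMSO and 0.0070 against IACS-9571. For dTRIM24 over time median centring gave -0.019, the GC trend 0.0040 and the length trend 0.056. For dTRIM24 against IACS-9571 at 4 h, the values were -0.032 with median centring, 0.029 on the spike-in scale, -0.029 with quantile normalization and -0.093 without the length trend. Quantile normalization gave -0.025 (IACS-9571) and -0.039 (dTRIM24) against DMSO at 4 h, and -0.023 for IACS-9571 against DMSO at 24 h, where the length trend gave -0.068. Rescaling to the spike-ins, by the ratio of their column medians, gave -0.16 for IACS-9571 against DMSO at 4 h. Those column medians were 29.7 FPKM with DMSO and 31.7 FPKM with IACS-9571, while the spike-ins' own differences had a median of -0.015. The cause of this gap was not tested. Of 99 counts past the threshold 92 stayed at 0. A 1.5-fold threshold gave 1 (dTRIM24 against DMSO) and 3 (dTRIM24 against IACS-9571) at 24 h, and 3 in DMSO and 2 in IACS-9571 over time. Rescaled to the spike-ins, 10 members were lower by 1.5-fold in DMSO over time and 0 in IACS-9571 over time, and 2 and 5 were higher with dTRIM24 at 24 h against DMSO and IACS-9571. In the same order the spike-ins' own differences had medians of -0.006, 0.023, -0.058 and -0.027. With the length trend taken out, 1 member passed 2-fold in dTRIM24 against DMSO (-1.08) and against IACS-9571 (-1.05) at 4 h and in dTRIM24 over time (1.24), each time ATP5EP2, the shortest member (156 bases); the cause was not tested. No paired analysis was possible because the columns are group means without replicate numbers, and no replicate could be left out.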
